A study of Mus musculus with 8 samples.

Results

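The genes described here encode the Rab GTPases. They were taken as every row of the count table whose symbol is Rab followed by a number and at most 1 letter from a to d, which gave 58 genes of 54532 once Rab4a was left out. The rule leaves out Rab4a, a recycling endosome Rab, because of its near on-off difference between the genotypes, so no count of called Rab genes given here is a count over the whole family. The RNA came from bone marrow-derived macrophages (BMDMs), which are macrophages grown from marrow precursors in macrophage colony-stimulating factor (M-CSF), after 6 days of differentiation and with no further treatment. There were 4 libraries from wild type (WT) mice and 4 from Gsdmd-/- mice, which lack the pore-forming executor of pyroptosis, and the same culture is given for both groups. The methods give the marrow donors as female C57BL/6J mice of 6 to 8 weeks and the knockout mice as a gift from another laboratory. Whether the libraries of a genotype came from different mice is not stated, so p-values measure the spread between these libraries only, which may be technical.

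Rab GTPases are small switches that are anchored to membranes by prenyl groups. An exchange factor (GEF) loads a Rab with GTP, the active Rab recruits effectors such as tethers and motor adaptors, and a GTPase-activating protein (GAP) returns it to the GDP form, which the carrier GDI extracts from the membrane. Each compartment carries its own Rabs, so that Rab5 marks early endosomes and Rab7 late endosomes, lysosomes and maturing phagosomes, and in macrophages this order of Rabs accompanies the digestion of ingested material. Transcript levels, which were measured here, do not show how much of a Rab is in its active form.

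Libraries held between 14935114 and 16794810 counts. Levels are given as CPM, which are gene counts relative to the library size after TMM scaling, and a gene with 0 counts may have had up to 3, which is between 0.177 and 0.199 CPM. Gsdmd itself fell from 75.3 ± 14.1 CPM in WT to 16.2 ± 1.56 CPM in Gsdmd-/- (SD, n = 4 libraries each; log2 fold change -2.22 ± 0.139 SE; edgeR quasi-likelihood test, adjusted p = 4.665e-05). Its counts did not overlap between the groups (1039 to 1570 against 241 to 307), though reads of the gene were still found in every Gsdmd-/- library. Of the 10 macrophage markers examined, all were detected, with summed levels from 16620 to 24650 CPM, whereas 8 neutrophil markers summed to between 4.44 and 6.91 CPM, nearly all of it S100a8, and Ly6g and Retnlg were at 0. WT 2 and WT 3 stood apart from the other 6 libraries on the first principal component (45.4 and 38.8 against -25.9 to -7.19; 43.6% of the variance), and values without both are given for many of the genes named. In bulk RNA, fewer cells of a type and less RNA per cell cannot be told apart.

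Rab4a had 4, 13, 5 and 7 counts in WT and 88, 89, 82 and 68 in Gsdmd-/-, which is 0.442 ± 0.247 and 5.05 ± 0.359 CPM (SD, n = 4; log2 fold change 3.49 ± 0.307 SE; edgeR quasi-likelihood test, adjusted p = 0.0008198). It was higher in Gsdmd-/- at every threshold used here, and it is in none of the counts that follow. Of the 58 Rab genes kept, 45 had enough counts to be tested and 13 did not. Each of the 7 roles used to group them held tested genes, and no more than 1 gene met the cutoff of the study's volcano plot, an unadjusted p under 0.05 with a log2 fold change of 0.5 or more in either direction. None of the 45 was higher in Gsdmd-/- by this cutoff, where 1.54% of all 12911 genes tested were higher, but as the rule had removed a gene that was, nothing is read from this 0. Rab6b was lower, which is 2.22% of the tested Rab genes where 3.28% of all genes tested were lower. At an adjusted p under 0.05 (Benjamini-Hochberg over all genes tested), 0 of the 45 were higher and 0 lower with edgeR, where 0.139% and 0.209% of all genes tested were, and the 0 higher again leaves out Rab4a. Without adjustment 3 Rab genes had a p under 0.05 (Rab33b, Rab6b and Rab8b), which is 6.67% of them where 12% of all genes tested did, and DESeq2 and limma voom also gave 0 adjusted calls, where they called 2.26% and 0.333% of all genes tested. The log2 fold changes lay between -0.50 and 0.36, and their median was 0.06 where that of all genes tested was -0.01. Of these Rab genes 30 were above 0 and 15 below, where 6257 of all 12911 genes tested were above 0 and 6652 below.

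**Figure D1:**
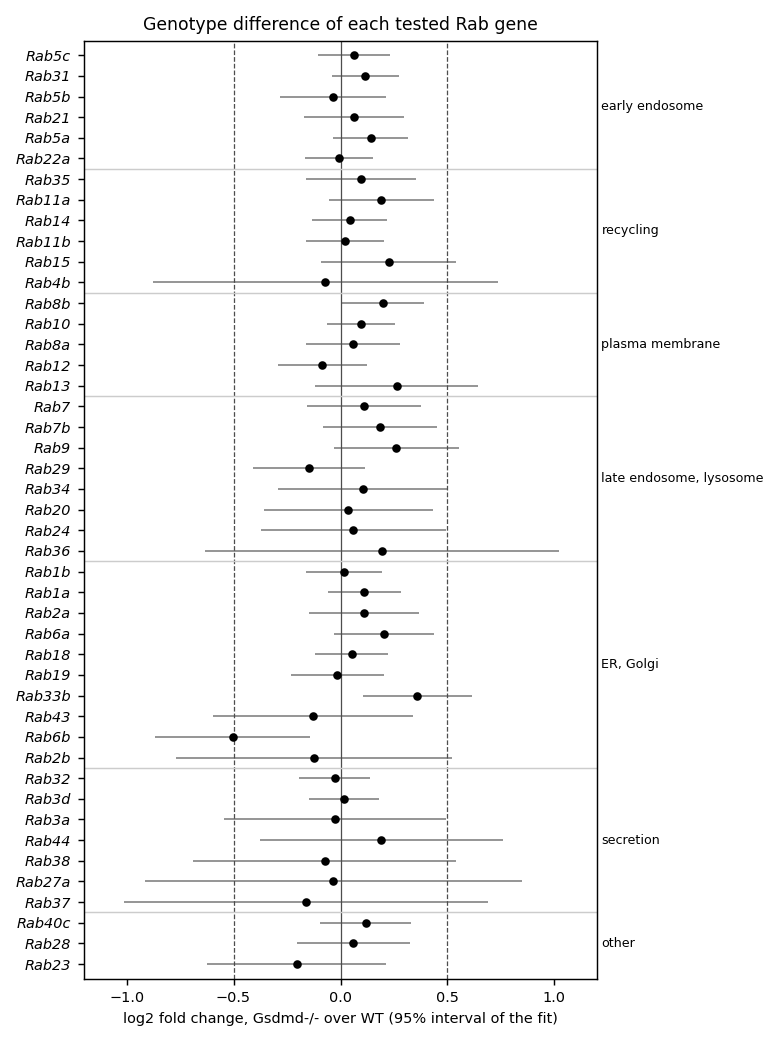
Log2 fold change of each of the 45 tested Rab genes, Gsdmd-/- over WT (horizontal axis; points are the edgeR estimates and lines their 95% intervals; dashed lines mark 0.5 in each direction), grouped by role. Rab6b is the one point beyond the dashed lines, at -0.50, and Rab33b at 0.36 is the highest.

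The data bounded most of these differences. The 95% interval of the log2 fold change lay within 0.5 in either direction, a 1.41-fold difference, for 29 of the 45 Rab genes (64.4%; 52.1% of all genes tested). It lay within 1, a 2-fold difference, for 43 Rab genes (95.6%; 84.3% of all genes tested). Among the 30 Rab genes with at least 2000 counts over the 8 libraries, 27 had intervals within 0.5. Of all tested Rab genes, Rab22a, which acts between early and recycling endosomes, varied least over the 8 libraries (coefficient of variation 3.09%), and Rab27a, at about 1 CPM, varied most (41%). The median coefficient of variation was 11.9% for the Rab genes and 15.6% for all genes tested.

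Summed over the genes kept, Rab genes took 0.410% ± 0.0228 of the counts of the WT libraries and 0.437% ± 0.00566 of those of Gsdmd-/- (SD, n = 4). The WT shares ran from 0.389% to 0.432% and the Gsdmd-/- shares from 0.429% to 0.441%, so the groups overlapped, and WT 3 and WT 2 were the lowest. With Rab7 also left out, the shares ran from 0.3325% to 0.3539% in WT and from 0.36% to 0.3671% in Gsdmd-/-. These ranges did not overlap, and WT 3 and WT 2 were again the lowest. By level per length, in CPM per kb of exon, 3 genes held 43.4% of the family's summed level in WT and 43% in Gsdmd-/-. These were Rab7, with 256 ± 44 in WT and 276 ± 12.1 in Gsdmd-/-, Rab5c, with 148 ± 6.93 and 155 ± 7.37, and Rab1b, with 137 ± 9.27 and 138 ± 5.53 CPM per kb. Rab7 drives late endosome and phagosome maturation, Rab5c is an early endosome Rab and Rab1b acts between the ER and the Golgi. In each WT library Rab7 was above Rab5c, and Rab5c above Rab1b, on this scale. The ranges of Rab5c and Rab1b over the WT libraries overlapped. The next were Rab1a (69.5 in WT), Rab2a (61.5), Rab7b (55.1), Rab8b (46.6), Rab10 (40.8), Rab31 (35.9) and Rab5b (35.6 CPM per kb), and the first 10 held 71% of the summed level in WT and 71.4% in Gsdmd-/-. The lowest of the tested genes was Rab37, a Rab of secretory granules, at 0.183 CPM per kb in WT.

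**Figure D2:**
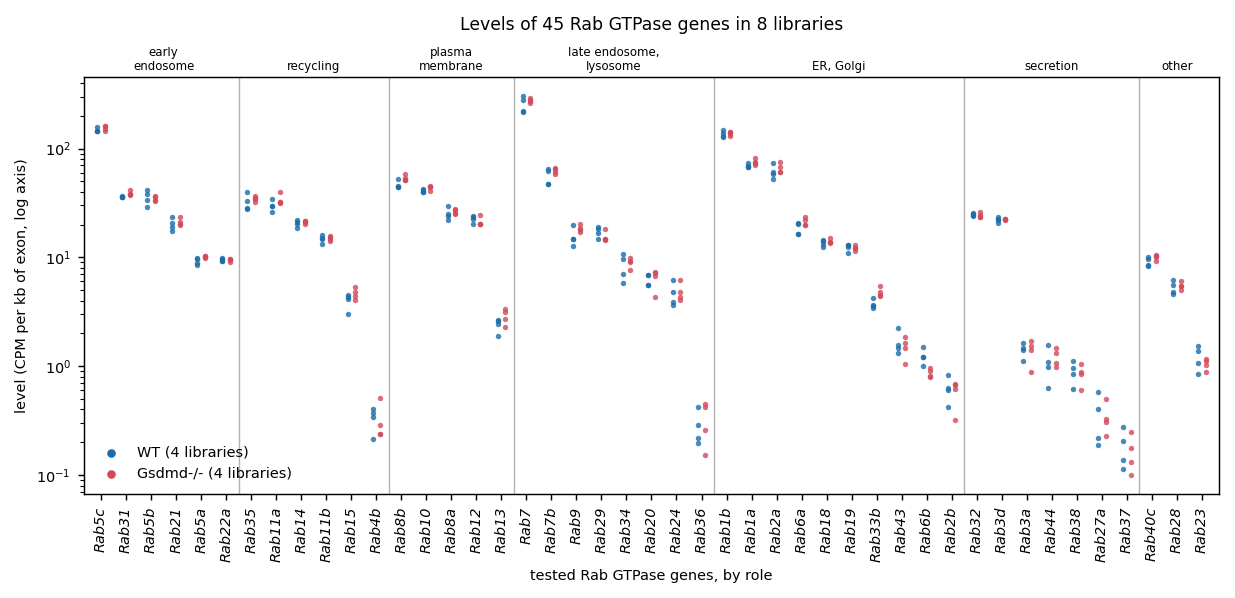
Level of the 45 tested Rab genes (CPM per kb of exon, log axis) in each of the 8 libraries. Genes are grouped by role and ordered within each role by the sum of the WT and Gsdmd-/- mean levels. Each point is 1 library, WT in blue and Gsdmd-/- in red, and the points of most genes lie over each other while the genes span from 0.183 (Rab37) to 256 (Rab7) CPM per kb in WT.

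Rab6b was the gene past the cutoff. Rab6 proteins act in traffic from the Golgi to the ER and along microtubules, and Rab6b is best known from neurons, whereas Rab6a is found in most cells. Rab6b lies at chr9:103111787-103185276 on the + strand (GRCm38), and Rab6a at chr7:100607410-100641268 on the + strand. Because the paralogs are closely related, the ends of their coding sequences are shown to let the reader see whether reads of one could be counted as the other. They are the last 150 bases of the 627 coding bases in GENCODE M21, from position 478 to the stop codon, with the bases that differ between the genes in capitals.
Rab6a: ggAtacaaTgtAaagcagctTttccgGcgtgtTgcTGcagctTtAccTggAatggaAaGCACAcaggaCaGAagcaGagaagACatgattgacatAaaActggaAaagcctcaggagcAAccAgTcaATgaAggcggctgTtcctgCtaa
Rab6b: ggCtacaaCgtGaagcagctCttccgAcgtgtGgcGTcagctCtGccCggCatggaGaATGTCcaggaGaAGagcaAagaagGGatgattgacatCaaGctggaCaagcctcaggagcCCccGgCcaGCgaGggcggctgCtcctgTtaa
Over the whole coding sequence 135 bases differed (78.5% identical), 36 of them in the stretch shown and 24 in the first 150 bases, and the longest identical run was 14 bases. No word of 50 bases of the Rab6b transcripts occurs in a transcript of any other gene.

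Counts of Rab6b were 83, 99, 123 and 101 in WT and 67, 82, 71 and 62 in Gsdmd-/-, which is 6.19 ± 1.01 and 4.36 ± 0.398 CPM (SD, n = 4). Every Gsdmd-/- library was below every WT library, and Rab6b was the one of the 45 with all Gsdmd-/- libraries lower (4.12% of all genes tested). The log2 fold change was -0.50 ± 0.163 SE (edgeR quasi-likelihood test, adjusted p = 0.269), with a 95% interval from -0.87 to -0.14. WT 3, with 123 counts, was the highest. Without WT 3 the log2 fold change was -0.40 and without both WT 2 and WT 3 it was -0.36, so that Rab6b no longer met the cutoff, while its groups still did not overlap. It also missed the cutoff without Gsdmd-/- 1 (-0.46) and without Gsdmd-/- 4 (-0.48), with limma voom (-0.49) and with no filter on low counts. Rab6a was at 68.8 ± 8.59 CPM in WT, against 79.2 ± 6.48 in Gsdmd-/- (log2 fold change 0.20 ± 0.105, adjusted p = 0.492; 0.05 without both WT 2 and WT 3). Its WT libraries had 74.7, 61.4, 61.4 and 77.5 CPM and its Gsdmd-/- libraries 74.4, 73.5, 87.1 and 82 CPM, which overlapped, with WT 2 and WT 3 the lowest. Some reads of Rab6a could come from its neighbor on the other strand, Mrpl48, since 19% of its exon bases overlap it and whether counting used strand is not given in the sources used here. As a share of the pair's summed level per length, Rab6b made up 6.36% ± 1.55 in WT and 3.94% ± 0.494 in Gsdmd-/-, with ranges of 4.77% to 8.31% and 3.58% to 4.66% that did not overlap.

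Rab33b had the largest log2 fold change above 0 among the 45 tested Rab genes, from which Rab4a is left out. It is a Golgi Rab that binds Atg16l1 and takes part in autophagosome formation. Counts of Rab33b were 213, 199, 206 and 246 in WT and 286, 269, 303 and 234 in Gsdmd-/-, which is 13.2 ± 1.25 and 16.9 ± 1.66 CPM. Scaled to depth, the highest WT library (15 CPM) was just under the lowest Gsdmd-/- library (15.5 CPM), so the groups did not overlap. The log2 fold change was 0.36 ± 0.115 SE (edgeR quasi-likelihood test, adjusted p = 0.264). It was 0.27 without both WT 2 and WT 3, which were the lowest libraries of this gene. Gm38160, a gene model of uncertain status on the opposite strand, overlaps 18.7% of the Rab33b exon bases.

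Rab31, an early endosome Rab that also serves phagocytosis, was, beside Rab33b, the other of the 45 with all Gsdmd-/- libraries higher. Its WT libraries lay within 135.9 and 138.6 CPM and its Gsdmd-/- libraries had 146, 158.9, 142.8 and 146.1 CPM. The groups were apart, but the difference was small, with a log2 fold change of 0.12 ± 0.0703 SE (edgeR, adjusted p = 0.561) and a 95% interval from -0.04 to 0.27. Together, Rab31 and Rab33b made up 4.44% of the tested Rab genes, where 3.48% of all genes tested had all Gsdmd-/- libraries higher.

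**Figure D3:**
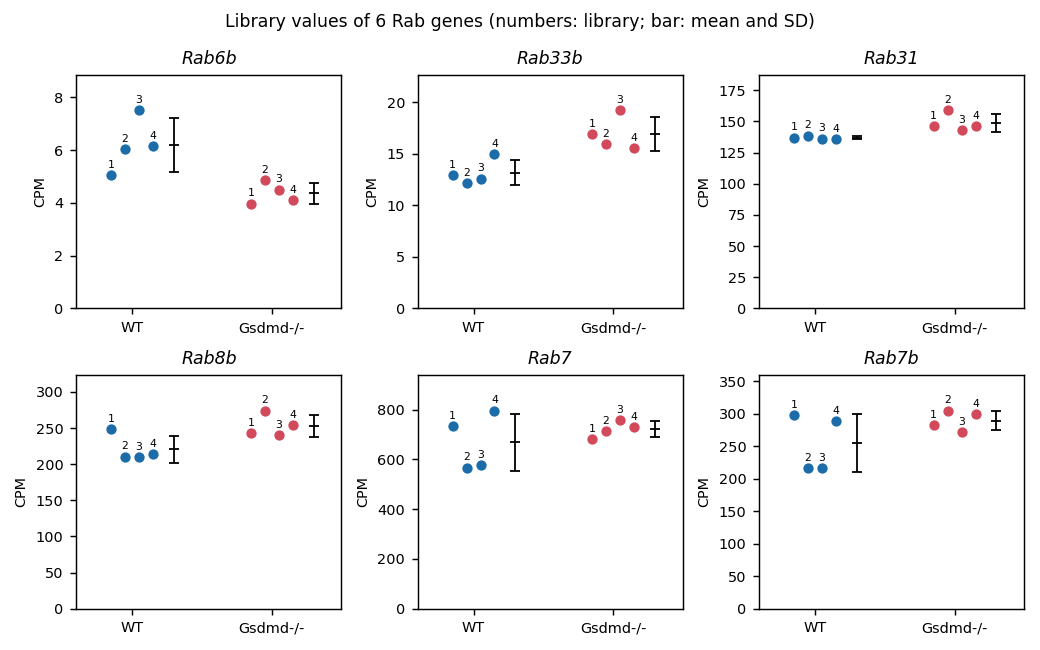
CPM of 6 Rab genes in each library (vertical axes start at 0; numbers are the library numbers; bars give the mean and SD of 4 libraries). Rab6b is lower and Rab33b and Rab31 are higher in all 4 Gsdmd-/- libraries, whereas for Rab8b, Rab7 and Rab7b the groups overlap and WT 2 and WT 3 are the lowest.

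The sequences just before the starts of Rab33b and Rab31, whose groups did not overlap, and of Rab7, the most abundant Rab gene, are shown as they stand in RefSeq (GRCm38.p6), 5′ to 3′ on the strand of the gene, up to the first exon base of GENCODE M21. Capitals mark the motifs searched on both strands, which were GGGCGG (known as the GC box), CCAAT (bound by the factor NF-Y), TATAAA (the TATA element) and CACGTG (the E-box), none of which contains another.
Rab33b, chr3:51483716-51483919, + strand: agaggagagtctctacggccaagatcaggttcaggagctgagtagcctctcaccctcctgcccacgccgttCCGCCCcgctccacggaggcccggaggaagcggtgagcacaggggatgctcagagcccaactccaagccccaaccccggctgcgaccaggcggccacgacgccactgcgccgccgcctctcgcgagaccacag
Rab31, chr17:65772753-65773002, - strand: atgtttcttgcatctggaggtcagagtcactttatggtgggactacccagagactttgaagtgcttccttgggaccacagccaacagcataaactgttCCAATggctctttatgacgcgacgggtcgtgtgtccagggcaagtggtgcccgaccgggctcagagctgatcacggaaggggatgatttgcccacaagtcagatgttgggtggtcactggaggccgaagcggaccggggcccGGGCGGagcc
Rab7, chr6:88045271-88045520, - strand: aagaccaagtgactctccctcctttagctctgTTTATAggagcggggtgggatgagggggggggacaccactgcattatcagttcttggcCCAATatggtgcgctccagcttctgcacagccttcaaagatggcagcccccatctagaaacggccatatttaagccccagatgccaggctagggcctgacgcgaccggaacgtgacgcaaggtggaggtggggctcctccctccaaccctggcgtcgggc
The Rab33b window holds 1 GC box and overlaps an exon of Gm38160, the Rab31 window holds 1 GC box and 1 CCAAT, and the Rab7 window holds 1 CCAAT and 1 TATAAA. RefSeq starts were found for 48 of the 58 Rab genes, with 60 windows of 250 bases before the start. GGGCGG stood in 66.7% of them and in 32.7% of all 32851 windows in the table, and CCAAT in 40% and 33.8%. CACGTG stood in 8.33% of the Rab windows and in 6.02% of all, and TATAAA in 6.67% and 12.4%. Windows of 1 gene can overlap, and a match is a description of the letters and not of a bound site.

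Among the 6 Rab genes of early endosomes and uptake, all were tested and 0 met the cutoff (median log2 fold change 0.06). Rab5c, the most abundant Rab5 gene, averaged 325.2 ± 15.2 CPM in WT against 339.7 ± 16.2 in Gsdmd-/- (log2 fold change 0.06, adjusted p = 0.788; 0.03 without both WT 2 and WT 3 and 0.10 without WT 4). Rab5a, which is required for early endosome fusion, had 52.4, 47, 44.4 and 50.6 CPM in WT and 53.4, 52.3, 54.6 and 54 in Gsdmd-/- (log2 fold change 0.14 ± 0.0794, adjusted p = 0.536; 0.05 without both WT 2 and WT 3). The Gsdmd-/- libraries of Rab5a lay close together, and only the lowest of them was under the highest WT library. Of the summed Rab5 level per length, Rab5c made up 76.8% ± 2.69 in WT and 77.5% ± 1.49 in Gsdmd-/-, Rab5b 18.5% and 17.4%, and Rab5a 4.78% and 5.09%, so the order of the 3 paralogs was the same in both groups.

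Of the 12 Rab genes of late endosomes, lysosomes, phagosomes and autophagy, 8 were tested, 7 of which had a log2 fold change above 0 and none of which met the cutoff (median 0.11). Rab7 had 734.4, 567.3, 575.8 and 796.3 CPM in WT and 682.7, 712.7, 758.4 and 728.9 in Gsdmd-/-. WT 2 and WT 3 were the 2 lowest of the 8 libraries and WT 4 the highest, so the WT mean of 668.5 ± 114.8 CPM had a wider spread than the Gsdmd-/- mean of 720.7 ± 31.6. The log2 fold change of 0.11 ± 0.12 (adjusted p = 0.766) became -0.09 without both libraries. Of the 50-base words of the Rab7 transcripts, 12.7% also occur in other genes, mostly the pseudogene Rab7-ps1, so its counts could hold reads of both. Rab7b, a Rab of late endosome to Golgi traffic, went the same way, with 297.4, 216.4, 216.7 and 288.3 CPM in WT and 281.9, 304.8, 271.8 and 299.1 in Gsdmd-/- (log2 fold change 0.18 ± 0.12, adjusted p = 0.591; -0.02 without both). Rab9, which returns mannose 6-phosphate receptors from late endosomes to the Golgi, had 22.4, 25.6, 34.4 and 25.7 CPM in WT and 32.7, 31.2, 35.5 and 30.1 in Gsdmd-/- (log2 fold change 0.26 ± 0.132, adjusted p = 0.487). Of the WT libraries of Rab9 only WT 3 reached the Gsdmd-/- range, and without it the log2 fold change was 0.40. Without both WT 2 and WT 3 the log2 fold change of Rab9 was 0.43 (adjusted p = 0.122), which was still not past the adjusted threshold. Rab29, a lysosome and Golgi Rab that recruits the kinase Lrrk2, was the one tested gene of this group below 0 (25.3 ± 2.67 and 22.8 ± 2.81 CPM; log2 fold change -0.15 ± 0.117, adjusted p = 0.675; -0.03 without both WT 2 and WT 3). Without Gsdmd-/- 3 it was -0.24, and the groups did not overlap, as for the 5.44% of all genes tested there with all Gsdmd-/- libraries lower. Rab20, a phagosome Rab, was at 8.69 ± 1.06 and 8.9 ± 1.93 CPM (log2 fold change 0.04, adjusted p = 0.956), and an RNA on the opposite strand, E230013L22Rik, overlaps 25.6% of its exon bases. Rab39, also of phagosomes, had 1 count in all.

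Of the 8 Rab genes of recycling endosomes, 6 were tested and none met the cutoff (median 0.07). Rab11a, the principal recycling Rab, averaged 89.5 ± 10.3 CPM in WT against 102.2 ± 11.9 in Gsdmd-/- (log2 fold change 0.19 ± 0.11, adjusted p = 0.542; 0.09 without both WT 2 and WT 3). Its Gsdmd-/- libraries had 96.5, 97.3, 120 and 94.9 CPM, so that Gsdmd-/- 3 stood above the rest, and without it the log2 fold change was 0.11. Rab14, which acts between the Golgi and early endosomes, was at 278.7 ± 20 and 287 ± 8.84 CPM (log2 fold change 0.04, adjusted p = 0.872; 0.11 without both). Rab11a made up 66.8% ± 3.47 of the summed Rab11 level per length in WT and 69.3% ± 2.2 in Gsdmd-/-, and the ranges overlapped.

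The 5 Rab genes of delivery to the plasma membrane were all tested, and none met the cutoff (median 0.10). Rab8b had 248.3, 210.5, 209.5 and 213.9 CPM in WT and 243.3, 274.2, 240.7 and 254.4 in Gsdmd-/-. WT 1 lay within the Gsdmd-/- range and the other 3 WT libraries below it. The log2 fold change was 0.20 ± 0.0866 (edgeR quasi-likelihood test, adjusted p = 0.396), and it was 0.13 without both WT 2 and WT 3. Rab8a, its paralog, which acts in exocytosis and tubule formation, was at 118.3 ± 15 and 123.3 ± 6.4 CPM (log2 fold change 0.06, adjusted p = 0.851; -0.06 without both). Rab10, which acts in exocytosis and Toll-like receptor 4 delivery, was at 143.4 ± 3.88 and 153.2 ± 6.98 CPM (log2 fold change 0.10 ± 0.0715, adjusted p = 0.650; 0.06 without both). Rab12, a regulator of receptor degradation, was at 68.4 ± 5.13 and 64.5 ± 6.34 CPM (log2 fold change -0.08, adjusted p = 0.768; -0.16 without Gsdmd-/- 3 and -0.01 without both).

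Of the 12 Rab genes of ER to Golgi and Golgi traffic, 10 were tested, and Rab6b, already described, was the one past the cutoff (median 0.04). Rab1a and Rab1b, which control ER to Golgi transport, averaged 263.9 ± 8.94 and 310.7 ± 21.1 CPM in WT, against 285.2 ± 17.8 and 314.5 ± 12.6 in Gsdmd-/- (log2 fold changes 0.11 and 0.02, adjusted p = 0.609 and 0.954). Without both WT 2 and WT 3 the log2 fold change of Rab1b was -0.06. Rab1b made up 66.3% ± 1.03 of the summed Rab1 level per length in WT and 64.8% ± 1.55 in Gsdmd-/-. Rab2a, which acts from the Golgi to lysosome fusion, was at 131.1 ± 18.9 and 141.5 ± 13.9 CPM (log2 fold change 0.11, adjusted p = 0.754; -0.02 without both WT 2 and WT 3), and it made up 99% ± 0.348 and 99.1% ± 0.315 of the Rab2 pair. Rab2b (log2 fold change -0.12, adjusted p = 0.902) and Rab43 (-0.13, adjusted p = 0.851; -0.30 without both WT 2 and WT 3) shared 57% and 74.5% of their 50-base words with other genes, mostly Gm43766 and Gm45140, so their counts are uncertain.

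Of the 11 Rab genes of regulated secretion and lysosome-related organelles, 7 were tested, none met the cutoff, and 5 were below 0 (median -0.03). Rab32, a Rab of lysosome-related organelles with a part in the defence of macrophages against bacteria, was at 58 ± 1.73 and 57 ± 3.17 CPM (log2 fold change -0.03, adjusted p = 0.922; -0.05 without both), and it made up 96.5% ± 0.86 of its summed level with the paralog Rab38 in WT and 96.7% ± 0.749 in Gsdmd-/-. Rab38 was at 1.4 ± 0.337 and 1.33 ± 0.294 CPM (log2 fold change -0.07, adjusted p = 0.944). Rab3d, a Rab of secretory granules, was at 93.1 ± 5.64 and 94.1 ± 1.25 CPM and made up 94.1% and 94.2% of its summed level per length with Rab3a. Rab27a, the Rab of granule and exosome secretion, was at only 1.36 ± 0.705 and 1.32 ± 0.45 CPM, and its 95% interval ran from -0.92 to 0.85 on the log2 scale, so that a change of a size like that of Rab6b was not detectable for it between these libraries. Its log2 fold change was -0.03, and -0.53 without both WT 2 and WT 3 (adjusted p = 0.612). Its partner Rab27b had 1 count in all. Of the remaining 4 Rab genes, 3 were tested and none met the cutoff, with Rab23, a Rab of cilia, at 10 ± 2.55 and 8.69 ± 1.05 CPM (log2 fold change -0.20 ± 0.189, adjusted p = 0.720; 0.13 without both WT 2 and WT 3).

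Of the 13 Rab genes not tested, Rab9b had no count in any library and the others had between 1 and 44 counts in all. Rab42 had 44 counts and Rab33a 21. Rab25, an epithelial relative of Rab11, had 3, 1, 1 and 2 counts in WT and 6, 7, 4 and 10 in Gsdmd-/-. These ranges did not overlap, and with no filter on low counts Rab25 met the cutoff as the one higher gene of the 58, on 34 counts in all. With no filter, 2.49% of all genes had all Gsdmd-/- libraries higher and 1.66% were higher by the cutoff.

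Part of the spread within WT was shared by many Rab genes. WT 2 and WT 3 were the 2 lowest of the 8 libraries for 16 of the 45 tested Rab genes (35.6%), where this held for 17.5% of all genes tested. They were the 2 highest for 2 Rab genes, Rab5b and Rab23 (4.44%), where this held for 17.9% of all genes tested. The 16 genes came from each role and included Rab7, Rab7b, Rab1b, Rab2a, Rab6a, Rab8a, Rab8b, Rab10, Rab11a, Rab21 and Rab35. The 10 macrophage markers moved in both directions in these libraries. WT 2 and WT 3 were the lowest for 4 of them (Lyz2, Cd68, Itgam and Fcgr1), the highest for 3 (Adgre1, Mertk and Mrc1) and neither for the other 3. The lysosomal glycoprotein Cd68 was at 414.1 and 423.8 CPM against 620.9 to 849.1 in the other 6 libraries, and the Fc receptor Fcgr1 at 7.09 and 6.66 against 17.8 to 40.7. The efferocytosis receptor Mertk was at 249.6 and 212 CPM against 101.3 to 141.9, Adgre1, which encodes F4/80, at 319.4 and 326.2 against 242.4 to 291.2, and the mannose receptor Mrc1 at 827.7 and 755 against 535.4 to 702. The sum of the 10 markers, 16620 and 18520 CPM against 20540 to 24650, was 78.2% to 84.5% Lyz2 in each library. The 7 dendritic cell markers summed to 51.9 and 47.8 CPM in these libraries and to between 16.8 and 22.3 CPM in the others. Nearly all of that was Clec9a, with 49.1 and 45.3 CPM against 14.5 to 18.3, while Siglech was at 0 and Flt3 at or near 0. Zbtb46, the other dendritic marker with enough counts to be tested, was at 2.69 and 2.26 CPM against 1.183 to 3.1. Of the 6 stromal markers, Pdgfra was at 2.08 and 1.59 CPM against 0.183 to 0.73, whereas Col1a1 and Col1a2 were at 0 in both libraries. The stromal markers summed to 7.76 and 7.57 CPM in WT 2 and WT 3 and to 8.22 CPM in WT 4. The part of these differences in the Rab levels was not tested. Without both libraries the median log2 fold change of the Rab genes was 0.05, and 0 of the 45 met the cutoff in either direction, where 3.05% of all genes tested without these libraries were higher and 3.15% lower. All Gsdmd-/- libraries were then higher for 5 of the 45 (Rab9, Rab18, Rab31, Rab33b and Rab34), as for 11.3% of all genes, and lower for 1 (Rab6b), as for 11.4%.

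**Figure D4:**
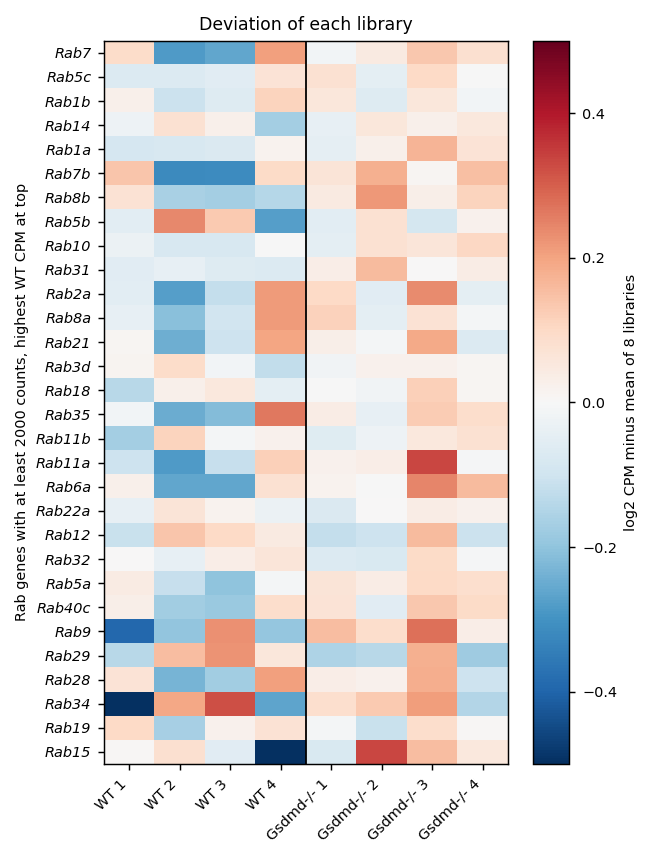
Deviation of each library from the mean of the 8 (log2 CPM, color from -0.5 to 0.5, values beyond drawn at the end of the scale) for the 30 Rab genes with at least 2000 counts, ordered by WT level. The columns WT 2 and WT 3 are blue for Rab7, Rab7b, Rab6a and Rab35 and red for Rab5b. Of the genes drawn, only Rab31 has all 4 WT libraries apart from all 4 Gsdmd-/- libraries, by a small difference.

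Of 138 genes of the proteins that act on or with Rabs, listed by hand as carriers and prenylation enzymes, GEFs, GAPs and effectors, 127 were tested. None was higher by the cutoff, where 1.54% of all genes tested were, and 5 were lower (3.94%, where 3.28% of all genes tested were lower). No gene had an adjusted p under 0.05 with edgeR, and 19 (15%) had an unadjusted p under 0.05, where 12% of all genes tested did. The median log2 fold change was -0.03, with 53 genes above 0 and 74 below, where 6257 of all genes tested were above 0 and 6652 below. Without both WT 2 and WT 3, 3 were higher by the cutoff (Bicd1, Rph3a and Tbc1d30) and 1 was lower (Lrrk1), where 3.05% and 3.15% of all genes tested were.

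Lrrk1, a kinase related to Lrrk2 that phosphorylates Rab7, had the smallest p of the 127 genes. Its WT libraries had 36.2, 37.5, 35 and 33.7 CPM and its Gsdmd-/- libraries 24.6, 23.9, 16.6 and 24. All Gsdmd-/- libraries were below all WT libraries, and the log2 fold change was -0.68 ± 0.126 SE (edgeR, adjusted p = 0.0671). Lrrk1 met the cutoff under every alternative run, also without both WT 2 and WT 3. Tbc1d8, a protein with the TBC domain of Rab GAPs, had 18, 22.6, 20.6 and 18.5 CPM in WT against 12.3, 12.2, 12.2 and 15.1 in Gsdmd-/-, again with no overlap (log2 fold change -0.62 ± 0.119, adjusted p = 0.0732). Without both WT 2 and WT 3 it did not meet the cutoff, but its groups still did not overlap. The remaining WT libraries had 18 and 18.5 CPM, and the highest Gsdmd-/- library had 15.1 CPM. The other 3 were Tbc1d4, the GAP of Rab10 (log2 fold change -0.50, adjusted p = 0.395), the Rab5 GEF Rin1 (-0.98, adjusted p = 0.339) and St5, with a DENN domain (-1.02, adjusted p = 0.389), and their groups overlapped. WT 2 and WT 3 were the 2 highest libraries for Tbc1d4, Tbc1d8, St5 and Rin1, as for 24.4% of the 127 genes. Rin1 rested on 68 counts in WT and 34 in Gsdmd-/-, and St5 on 83 and 40.

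The groups did not overlap for 16 of the 127 genes, 4 higher (3.15%) and 12 lower (9.45%) in Gsdmd-/-, where 3.48% and 4.12% of all genes tested were higher and lower without overlap. The 4 higher were Rilpl2, an effector that binds phosphorylated Rab8 and Rab10 (197.8 ± 10.5 and 261.4 ± 25.4 CPM; log2 fold change 0.40, adjusted p = 0.115), the Rab7 GAP Tbc1d15 (0.35, adjusted p = 0.108), the Rab1 GAP Tbc1d20 (0.29, adjusted p = 0.210) and the exchange factor Rab3il1 (0.25, adjusted p = 0.299). Beside Lrrk1 and Tbc1d8, the lower ones were the exchange factors Rin2 (-0.33), Rin3 (-0.30), Madd (-0.36), Dennd1c (-0.33), Mon1b (-0.32) and Hps4 (-0.16), the effectors Unc13d (-0.35), Rab11fip1 (-0.39) and Ehbp1 (-0.39), and the GAP Tbc1d10b (-0.15), none with an adjusted p under 0.05. Of the 8 carriers and prenylation genes, through which all Rabs pass, 6 were above 0 and none met the cutoff (median 0.07). Among the 44 GEFs tested 14 were above 0 (median -0.07), among the 32 GAPs 17 (median 0.04) and among the 43 effectors 16 (median -0.06).

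**Figure D5:**
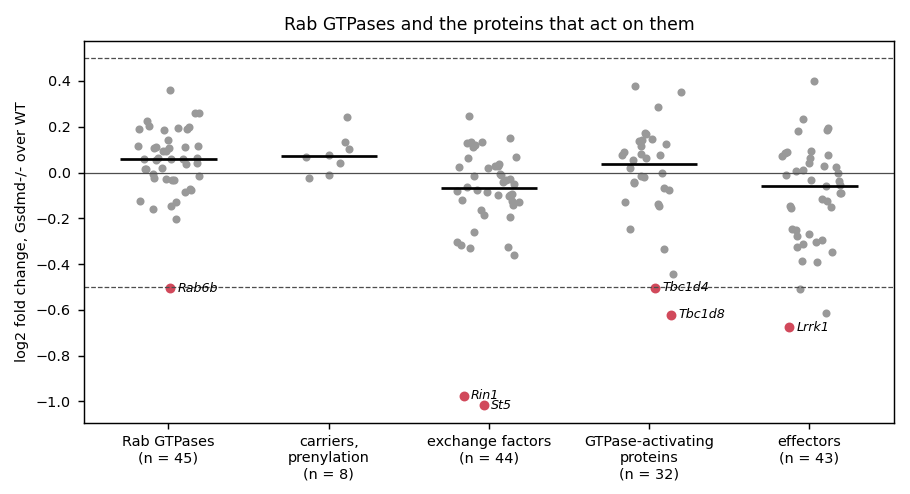
Log2 fold change, Gsdmd-/- over WT, of the tested Rab genes and of 4 classes of proteins that act on them (points are genes, horizontal bars medians, dashed lines 0.5 in each direction, red points met the cutoff). The Rab genes lie between -0.50 and 0.36, and the 6 red points are all lower in Gsdmd-/-, at -0.50 for Rab6b and from -1.02 to -0.50 for the other 5.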

How the data were processed

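BMDM RNA was extracted with TRIzol, and TruSeq libraries were sequenced by a company. The authors deposited 1 table of read counts per gene, not normalized, in which every value was checked to be a whole number and no library pair was identical. The submitters' processing notes name mm10 (GRCm38). The aligner, the counter, its annotation and its use of strand are not given in the sources used here. Positions and exon lengths came from GENCODE M21, in which 54495 of 54532 identifiers and all 58 Rab genes were found. TMM scaling and filterByExpr, which left 12911 genes, preceded the test, and genotype was tested in edgeR 4.0.16 (R 4.3.3) by the two-sided quasi-likelihood test on all 8 libraries, after a test of the script on simulated data. SE is the log2 fold change divided by the square root of F, and the 95% interval uses 10.27 degrees of freedom. Alternatives were DESeq2 1.42.0, limma voom 3.58.1, RLE scaling, other filters, a replicate block, and libraries left out. Sequence shared between genes was counted in 50-base words of GENCODE M21 transcripts, on either strand.

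The Rab genes, role lists and regulators were chosen with earlier results of these data known. Genes were named by a rule covering any call, the 6 smallest p in each direction, the 6 highest levels per length, and 13 Rab genes with a known place in macrophages. Of the regulators, those past a call or without overlap between the groups were named. Rab25 and the other genes outside the rule were named after their values were seen. The limit given for a 0 covers counting error only. Deviations from the group means correlated above 0.1 for 1 of the 4 library numbers, so the numbers were not used as pairs.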

Additional observations from a re-analysis of the deposited data

Results flagged for a closer look

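The values examined were those of the tested Rab genes named by the rule, and the summed Rab share of the counts. For each of these, both groups of 4 libraries were examined for a library whose gap to its nearest neighbour was most of the range of the group (Dixon's 95% criterion). Chance gives this in about 1 of 20 groups, and it was found in 7 of 54. In WT 4, Rab1a was at 277.2 CPM where the other WT libraries had 258.4 to 260.7, and Rab5c at 347.9 CPM where they had 316.3 to 319.6. In WT 1, Rab8b was at 248.3 CPM where the others had 209.5 to 213.9. In Gsdmd-/- 3, Rab11a was at 120 CPM where the others had 94.86 to 97.29, Rab12 at 73.96 where they had 60.9 to 61.57, and Rab29 at 27.02 where they had 21.1 to 21.71. In Gsdmd-/- 4, Rab20 was at 6.037 CPM where the others had 9.463 to 10.13. Gsdmd-/- 3 was also the library with the most tested Rab genes above the mean of the 8 libraries, with 35 of 45.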

How the results depend on the processing

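None of the Rab genes counted, which leave out Rab4a, had an adjusted p under 0.05 under any alternative, and the median log2 fold change of the tested Rab genes lay between 0.0433 and 0.0994 in all. The count of Rab genes lower by the cutoff, 1 (Rab6b), was 0 with no filter, with limma voom, with the replicate block and without both WT 2 and WT 3, and between 0 and 1 when each library was left out (0 without WT 3, Gsdmd-/- 1 and Gsdmd-/- 4). The count higher, 0, was 1 with no filter (Rab25; 1.66% of all genes) and 1 with a log2 cutoff of 0.25 (Rab33b; 3.71% of all genes). Rab genes with all Gsdmd-/- libraries higher numbered 4 with no filter (2.49% of all genes tested), 5 without both WT 2 and WT 3 (11.3%), and from 2 to 5 with each library left out (5 without WT 4, where all genes had 8.74%, and without Gsdmd-/- 1, where they had 4.75%). Those with all lower numbered from 1 to 2 with each library left out (2 without Gsdmd-/- 3, Rab29 beside Rab6b, where all genes had 5.44%). Regulators lower by the cutoff, 5 in all, numbered 3 with at least 10 counts in every library, with limma voom and with the replicate block, 1 without both WT 2 and WT 3 (3.15% of all genes tested), and 2 to 7 with each library left out (2 without WT 2 and without WT 3, where all genes had 2.34% and 2.27%, and 7 without WT 4, where they had 5.37%). Those higher numbered 3 without both (3.05% of all genes) and 0 to 1 with each library left out. Where a call was lost or gained with fewer libraries or another filter, the cause was not tested.

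Of 390 values of 26 named Rab genes under alternatives, 362 kept their direction and their side of the adjusted threshold, and 28, over 12 genes, changed sign. Rab27a was 0.056 with limma voom and 0.0196 with the replicate block, and -0.5309 without both WT 2 and WT 3. Without both WT 2 and WT 3 the log2 fold change was 0.1261 for Rab23, 0.1146 for Rab2b, -0.0891 for Rab7, -0.0604 for Rab1b, -0.0245 for Rab2a, -0.0201 for Rab7b, -0.0584 for Rab8a and 0.2009 for Rab38. With each library left out it ran from -0.2884 to 0.3257 for Rab27a, -0.2503 to 0.0551 for Rab43, -0.0308 to 0.1797 for Rab20, -0.0196 to 0.0608 for Rab1b, -0.001 to 0.1502 for Rab8a, -0.2136 to 0.0571 for Rab38, -0.2663 to 0.0744 for Rab2b and -0.0013 to 0.0702 for Rab14. Libraries of the same number correlated at 0.0268, 0.182, 0.0412 and -0.201 in their deviations from the group means, and those numbered 2 alone correlated best with each other both ways.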
